A study of Mus musculus with 18 samples.

Results

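The genes described here are the 101 long noncoding RNA (lncRNA) genes with the most reads in cultured mouse CD8+ T cells. They were selected on counts, from the 1635 genes typed as lncRNA genes in the authors' table of 17738 genes by a mean raw count of at least 150 over the 8 cultured libraries. The mean ignores the groups, but a gene can reach it through a group in which it is high. Of the 101 genes, 69 had a mean of 150 or more in all 4 cultured groups and 32 did not, and 1 reached it in 1 group alone. At the edge of the rule, 4930579G18Rik (mean count 152.25), A930024E05Rik (154) and 4921525O09Rik (157.75) were just inside, and Gm5165 (139.75), Gm31718 (137.625) and 1500004A13Rik (135.625) just outside.

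Long noncoding RNAs are transcripts that are spliced and polyadenylated much like messenger RNAs but are not known to encode a protein of usual length. Some act in the nucleus, where they scaffold bodies or silence genes nearby or along a chromosome. Others are carriers: small nucleolar RNAs (snoRNAs), which guide the modification of ribosomal RNA, are cut from the introns of host transcripts, and microRNAs are cut from hairpins within primary transcripts. Many snoRNA host transcripts begin with a pyrimidine tract and are degraded by nonsense-mediated decay when they are translated, so that their level depends on growth signals and on translation.

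RNA was sequenced from 18 libraries of mouse CD8+ T cells in 8 groups, to ask what the nuclear receptor NR4A1 does in T cells of tumours. In culture, cells infected with a virus for Nr4a1 (Nr4a1-OV, 2 libraries) were set against cells infected with the virus named RV-GFP (2 libraries), the comparator. Naive cells labelled Nr4a1 WT or Nr4a1 KO (2 libraries each) were activated with plate-bound antibodies to CD3 and CD28 at 2 μg/mL. Before RNA was taken, every culture was given PMA and ionomycin, which act downstream of the T cell receptor, for 2 h. In tumours, cells with the transgenic OT-I receptor were sorted as Nr4a1RFP+ or Tim-3+ on day 21 after tumour inoculation (2 libraries each, both genotype WT), or as Ly108+ cells labelled Nr4a1 WT (Nr4a1+/+) or Nr4a1 KO (Nr4a1-/-), with 3 libraries each and the day not given apart. Libraries were made by BGI or by Smartseq2, and which method served which library is not given. The mice's age, sex and strain, the tumour line, how the KO allele was made and any sorting of infected cells are not given in the sources used here.

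The cultured libraries held 16769720 to 17119726 counts, and the 101 genes took 0.54% to 0.774% of them. Nr4a1, the check of the labels, was raised in Nr4a1-OV over RV-GFP (log2 fold change 1.32 ± 0.063 SE, adjusted p = 2.08e-13). In the libraries labelled Nr4a1 KO it was not lower: the log2 fold change against Nr4a1 WT was 0.20 in culture and 1.10 in Ly108+ cells, so every direction below is given for libraries labelled Nr4a1 KO. The summed level of 6 T cell and CD8 markers was 896.5 to 1131 RPKM in culture and 920.2 to 1011 RPKM in Ly108+ cells. The sum of the myeloid markers was 2.75 to 13.1 RPKM in culture, where 3 of 6 were listed, and 57.1 to 120.8 RPKM in Ly108+ cells, where all 6 were. That of the tumour and stroma markers was 6.11 to 22.5 RPKM (3 of 6 listed) and 50.1 to 62.05 RPKM (4 of 6). In culture the 1 listed NK marker had 18.6 to 62.6 RPKM, and the CD4 markers summed to 4.49 to 39.5 RPKM. That NK marker passed the test as higher in Nr4a1-OV over RV-GFP (log2 fold change 0.95), KO over WT (1.645) and RV-GFP over WT (0.36). With the KO label in Ly108+ cells, the median log2 difference was 0.61 over the 3 myeloid markers tested and 0.63 over the 4 tumour and stroma markers, 1 of each passing the test as higher. Between RV-GFP and WT all 3 stroma markers tested were lower, with a median of -1.86. The part of other cells in the values below was not tested. RPKM is reads scaled to the length of the transcript and the size of the library. In such mixed RNA, fewer cells that express a gene and less of its RNA per cell cannot be told apart.

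The 101 genes spanned a wide range of levels. Their mean over the 8 cultured libraries ran from 0.808 to 229.9 RPKM with a median of 6.92 RPKM, and their exonic length in GENCODE from 141 to 93092 bases. The highest mean level was that of AW112010, a transcript induced by interferon and microbial products that is also translated in mouse macrophages. The other 7 of the 8 highest were the snoRNA hosts 2410006H16Rik and Gas5, the microRNA hosts Mir142hg and Mir155hg, the X-silencing RNA Xist, the brain cytoplasmic RNA Bc1, and Gm44174, whose annotated end lies 143 bases from Cd8a on the same strand. By annotation, 16 of the 101 host a snoRNA or a related small Cajal body RNA, 42 such RNAs in all, and 7 host a microRNA, Snhg20 doing both. GENCODE types 2 of the 101 otherwise, as protein coding (Gm47283 and Kantr), and 1 as a transcribed pseudogene (C920009B18Rik). A protein-coding gene overlaps 41 of the 101, on the opposite strand in 31. Whether reads were counted by strand is not given, so reads of overlapping genes cannot be told apart.

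With forced Nr4a1, 31 of the 101 genes rose and 47 fell, against 31.3% of all 14994 genes tested that rose and 29.6% that fell (60.9% in all). Among the 9061 tested genes of any type with the same minimum count, 33.6% rose and 41.1% fell (74.8% in all). Of 980 lncRNA genes under the minimum, 31% rose and 7.04% fell (38.1% in all). The shares for the 101 genes, 30.7% and 46.5%, were close to those of genes at like counts. Their median log2 fold change was -0.16, against -0.060 at like counts and 0.019 over all genes. The split moved with the minimum count: of the 69 genes at 150 or more in all 4 groups, 17 rose and 36 fell, and at a minimum mean of 100 counts 51 of 143 genes rose and 51 fell. At least 2-fold changes were rarer: 11 of the 101 rose and 6 fell by that much. Changes of that size were not counted over all genes, so these counts are a description of the set. Across the 101 genes the log2 fold change ran from -1.57 to 2.84, with standard errors of 0.052 to 0.43.

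In the libraries labelled Nr4a1 KO, 37 of the 101 rose against Nr4a1 WT in culture and 18 fell, while 18.4% of all genes tested rose and 21.6% fell (40.1% in all). The shares at like counts were 21.5% and 29.2% (50.7% in all), those of lncRNA genes under the minimum 9.08% and 7.76% (16.8% in all), and those of the 101 genes 36.6% and 17.8%. The median log2 fold change was 0.12, against -0.045 at like counts. Of the 69 genes at 150 or more in all 4 groups, 29 rose and 8 fell. Over the 101 the range was from -4.98 to 2.27, with 8 genes at least 2-fold higher and 2 at least 2-fold lower. Here too, 2-fold changes were not counted over all genes.

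Most snoRNA hosts went the same way in culture. With forced Nr4a1, 14 of the 16 fell and 1 rose, with a median log2 fold change of -0.61, and in the libraries labelled Nr4a1 KO 13 of the 16 rose and 1 fell, with a median of 0.37. Of the 12 that had been listed by name, 11 fell with forced Nr4a1 and 11 rose with the KO label. Leaving the 16 hosts and the microRNA hosts out, 30 of 79 genes rose and 30 fell with forced Nr4a1, and 22 rose and 16 fell with the KO label. When each library was left out in turn, 13 or 14 hosts still passed the test as lower with forced Nr4a1, and 11 to 13 as higher with the KO label.

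Gas5, which carries 9 annotated snoRNAs and whose transcript is a known substrate of nonsense-mediated decay, had the highest mean count of the 16 and the second highest of the set after Xist. It had 7742 and 8145 counts in Nr4a1-OV, 11044 and 10775 in RV-GFP, 6507 and 6006 in Nr4a1 WT and 8094 and 8004 in Nr4a1 KO. RV-GFP was the highest group and Nr4a1 WT the lowest, and neither overlapped its comparator. The log2 fold change was -0.61 ± 0.054 (SE; adjusted p = 2.73e-09) for Nr4a1-OV over RV-GFP and 0.42 ± 0.054 (SE; adjusted p = 2.48e-06) for Nr4a1 KO over WT.

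Snhg1, with 8 annotated snoRNAs, had 2522 and 2670 counts in Nr4a1-OV, 3734 and 3730 in RV-GFP, 2031 and 1879 in Nr4a1 WT and 2260 and 2383 in Nr4a1 KO. Its log2 fold changes were -0.68 ± 0.056 (SE; adjusted p = 1.01e-09) with forced Nr4a1 and 0.30 ± 0.058 (SE; adjusted p = 2.39e-04) with the KO label. Snhg1 starts 106 bases from Slc3a2, the heavy chain of amino acid transporters, on the other strand, and Slc3a2 itself fell (-1.05, adjusted p = 1.24e-11) and rose (0.67, adjusted p = 7.70e-08) in these 2 comparisons. Snhg12, host of 4, gave -0.71 ± 0.068 (SE; adjusted p = 9.83e-09) and 0.40 ± 0.075 (SE; adjusted p = 1.93e-04). Zfas1, host of 3, gave -0.52 ± 0.062 (SE; adjusted p = 2.74e-07) and 0.27 ± 0.064 (SE; adjusted p = 0.00158), the latter not past the threshold without WT replicate 2 (0.16, adjusted p = 0.0571).

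Among the hosts of fewer snoRNAs, Snhg6 fell the most with forced Nr4a1 of those named Snhg, from 1223 and 1248 counts in RV-GFP to 753 and 816 in Nr4a1-OV (-0.81 ± 0.078 SE, adjusted p = 1.05e-08). With the KO label it rose by 0.35, or 0.21 without WT replicate 2. Dancr, which holds back differentiation of human epidermal progenitors, had 146 and 135 counts in Nr4a1 WT and 510 and 573 in RV-GFP. Its log2 fold changes were -0.56 ± 0.087 (SE; adjusted p = 8.94e-06) with forced Nr4a1 and 0.47 ± 0.12 (SE; adjusted p = 0.00336) with the KO label. Snhg5, Snhg8 and 1110038B12Rik fell by 0.75, 0.62 and 0.79 with forced Nr4a1 and rose by 0.39, 0.42 and 0.43 with the KO label. The last is included here because it hosts annotated snoRNAs.

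Smaller changes were less firm. Snhg17 fell by 0.42 and rose by 0.18, and the rise lost its call in DESeq2 (adjusted p = 0.0502) and without KO replicate 1, KO replicate 2 or WT replicate 2 (0.15 to 0.19). Snhg15 fell by 0.34 and rose by 0.26, a rise that was 0.20 (adjusted p = 0.115) without KO replicate 1. Epb41l4aos fell by 0.30, or by 0.24 (adjusted p = 0.0604) without Nr4a1-OV replicate 1, and rose by 0.68. Snhg20 did not pass the test in either comparison (-0.040, adjusted p = 0.709, and 0.25, adjusted p = 0.0564).

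Some hosts departed from the rest. 2410006H16Rik, host of 3 snoRNAs, rose in both comparisons, by 0.33 with forced Nr4a1 and by 0.88 with the KO label, from 1449 and 1294 counts in RV-GFP to 1808 and 2037 in Nr4a1-OV and from 1039 and 1073 in WT to 1714 and 2019 in KO. Its rise with forced Nr4a1 was 0.21 (adjusted p = 0.0612) without RV-GFP replicate 2. AI506816 fell in both, by 1.05 and by 0.24, with 3145 and 3196 counts in Nr4a1-OV against 5913 and 5908 in RV-GFP. AI506816 is counted as a host through a small RNA that GENCODE types as a snoRNA but names as a microRNA, Mir3096. Over 299 bases around their starts, AI506816 and 2700038G22Rik, on the same chromosome, share 232 bases without gaps (77.6%), so their values are uncertain where reads could match both.

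**Figure D1:**
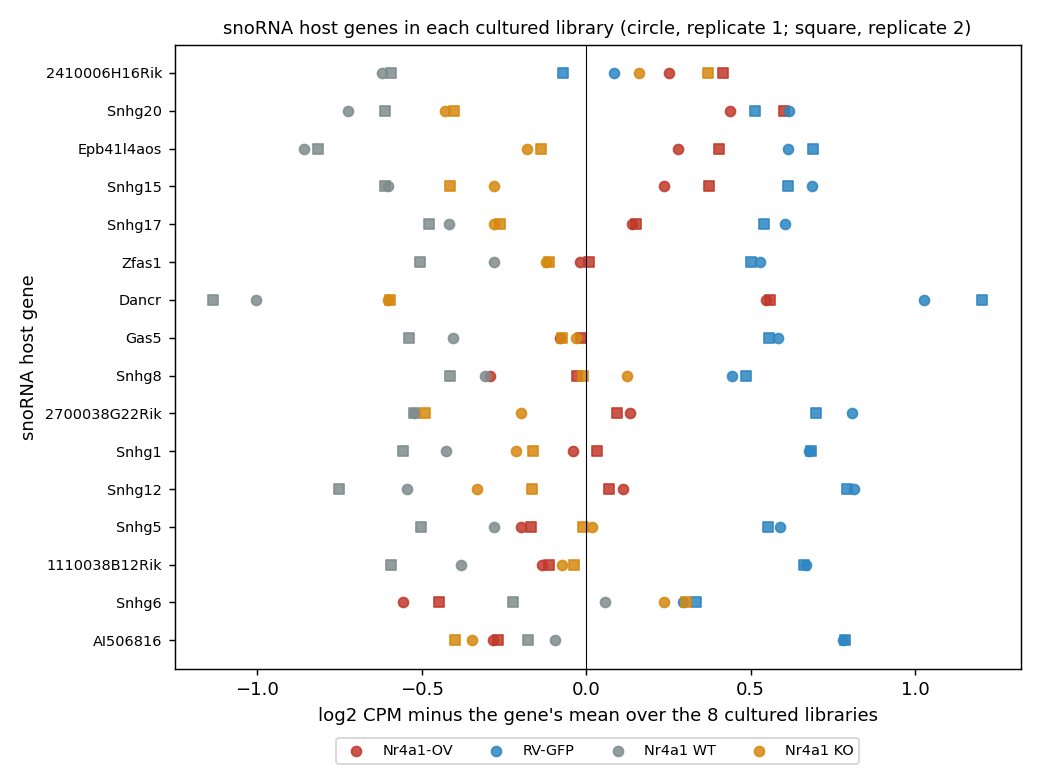
Each row is a snoRNA host gene, and each point is the log2 CPM of 1 cultured library minus the gene's mean over the 8 libraries, coloured by group, CPM being counts scaled to the effective library size. RV-GFP libraries sit to the right of Nr4a1-OV libraries in 14 of the 16 rows that passed the test as lower, and Nr4a1 KO to the right of Nr4a1 WT in the 13 that passed as higher.

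The proteins that bind snoRNAs were measured beside their hosts. All 8 listed proteins of box C/D and H/ACA particles fell with forced Nr4a1, with a median of -0.87, among them Nop58 (-0.90), Fibrillarin's gene Fbl (-0.96) and Dkc1 (-0.89). With the KO label 3 rose, Nop56 (0.41), Nop58 (0.28) and Dkc1 (0.17), 1 fell, Gar1 (-0.37), and 4 did not pass the test. Of 10 genes of nonsense-mediated decay, 2 rose and 5 fell with forced Nr4a1, and none rose and 7 fell with the KO label. Smg9, which regulates the kinase of that pathway, gave -0.75 and Smg6, its endonuclease, -0.62 with the KO label. What part these genes had in the hosts' levels was not tested.

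The starts of 4 snoRNA hosts held a short motif like the pyrimidine tract of translation-controlled transcripts. They are shown because this feature is known for the class. The search was for CTTTT or CTTTC on the sense strand within 20 bases of the start, in RefSeq promoters of GRCm38.p6. Other pyrimidine runs were not counted, and the motif, called the tract here, need not begin at the first base. Gas5 has another listed start, which held no match. Each line gives 30 bases on either side of the start, with the tract in capitals.
Gas5, chr1:161035136-161035195, + strand: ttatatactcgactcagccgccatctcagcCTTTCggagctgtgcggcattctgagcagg
Snhg5, chr9:88522868-88522927, - strand: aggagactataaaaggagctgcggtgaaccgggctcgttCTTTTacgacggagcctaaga
Snhg12, chr4:132308648-132308707, + strand: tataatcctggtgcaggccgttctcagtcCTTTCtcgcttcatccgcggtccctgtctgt
2410006H16Rik, chr11:62602847-62602906, + strand: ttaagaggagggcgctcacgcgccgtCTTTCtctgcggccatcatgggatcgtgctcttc
A promoter was available for 14 of the 16 hosts, so 28.6% of these held the tract, as did 15 of the 68 genes of the whole set with a promoter (22.1%) and 11.9% of 27025 genes. Gas5, Snhg5 and Snhg12 fell and rose as given above, while 2410006H16Rik, which also has the tract, rose in both comparisons.

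The microRNA hosts went different ways. With forced Nr4a1 none of the 7 rose and 3 fell (Mir17hg, Mir155hg and Ftx), and with the KO label 2 rose (Mir155hg and Mir22hg) and 1 fell (Dleu2). The mature microRNAs below are those that the hosts' values bear on, from RefSeq on GRCm38.p6, with the seed (bases 2 to 8) in capitals. The libraries measured the host transcripts, not the mature microRNAs.
mmu-miR-155-5p: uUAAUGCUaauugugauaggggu
mmu-miR-17-5p: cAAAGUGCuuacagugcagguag
mmu-miR-20a-5p: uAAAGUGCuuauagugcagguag
mmu-miR-18a-5p: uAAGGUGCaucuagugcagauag
mmu-miR-19a-3p: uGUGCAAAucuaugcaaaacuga
mmu-miR-19b-3p: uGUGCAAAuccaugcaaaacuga
mmu-miR-92a-3p: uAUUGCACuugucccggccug
mmu-miR-22-3p: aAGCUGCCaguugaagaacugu
mmu-miR-15a-5p: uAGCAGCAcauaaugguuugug
mmu-miR-16-5p: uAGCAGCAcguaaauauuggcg
mmu-miR-142a-3p: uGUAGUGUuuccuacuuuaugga
Of these, miR-17-5p and miR-20a-5p share a seed, as do miR-19a-3p and miR-19b-3p, both pairs within Mir17hg, and miR-15a-5p and miR-16-5p within Dleu2.

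Mir155hg carries miR-155, which supports effector responses of CD8 T cells. Its level was 74.8 and 79.2 RPKM in Nr4a1-OV, 105 and 107 in RV-GFP, 15.2 and 16.7 in Nr4a1 WT and 45.6 and 47.1 in Nr4a1 KO. The 4 groups did not overlap. It fell with forced Nr4a1 (-0.45 ± 0.056 SE, adjusted p = 4.83e-07) and rose with the KO label (1.54 ± 0.070 SE, adjusted p = 2.19e-13). The Ly108+ libraries had 34.7, 27.0 and 27.6 RPKM (WT) and 29.9, 30.1 and 28.2 RPKM (KO), which overlapped.

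Mir17hg, the primary transcript of the miR-17-92 cluster that favours lymphocyte growth, had 1491 and 1470 counts in Nr4a1-OV, 2278 and 2278 in RV-GFP, 619 and 580 in Nr4a1 WT and 680 and 597 in Nr4a1 KO. The infected groups stood apart from each other and from the rest, whereas WT and KO overlapped. The log2 fold change was -0.78 ± 0.062 (SE; adjusted p = 5.73e-10) with forced Nr4a1 and 0.15 ± 0.076 (SE; adjusted p = 0.131) with the KO label. Mir22hg had 76 and 76 counts in WT and 168 and 161 in KO, a rise of 1.17 ± 0.14 (SE; adjusted p = 1.41e-06), and 325 and 334 in Nr4a1-OV against 303 and 248 in RV-GFP, groups that overlapped as CPM though not as counts (0.10, adjusted p = 0.412). Mir22hg overlaps Tlcd2 on the same strand.

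Dleu2, which carries the miR-15a and miR-16-1 hairpins that restrain cell cycle genes, fell with the KO label from 444 and 425 to 333 and 300 counts (-0.40 ± 0.091 SE, adjusted p = 0.00123). With forced Nr4a1 it gave -0.17 (adjusted p = 0.132). Mir142hg, host of the blood-cell microRNA miR-142, was high in every group, with 141 to 223 RPKM in culture, and did not pass the test with forced Nr4a1 (0.027, adjusted p = 0.756) or the KO label (0.16, adjusted p = 0.0939). Of 7 microRNA-processing genes, 2 rose and 5 fell with forced Nr4a1 and 2 fell with the KO label, among them Drosha, which cuts the hairpins from primary transcripts (-0.48 and -0.60).

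**Figure D2:**
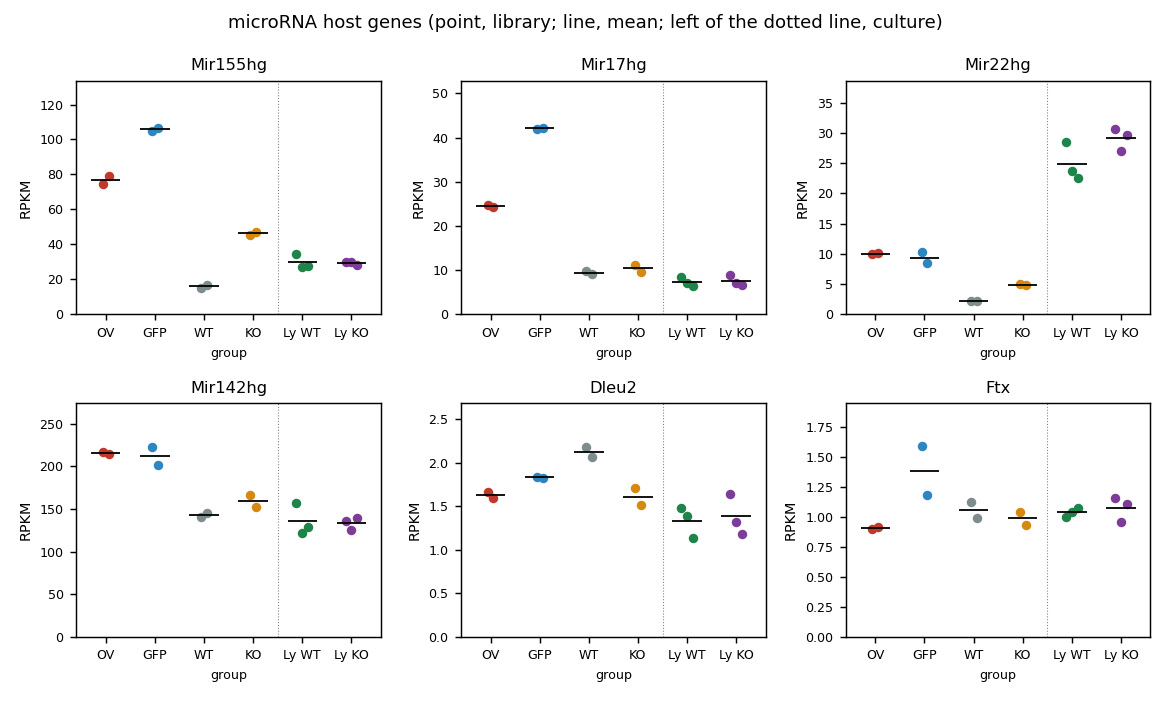
Each panel shows a microRNA host in RPKM (axis from 0) by group: Nr4a1-OV, RV-GFP, Nr4a1 WT and KO in culture, then Ly108+ WT and KO. Mir155hg and Mir17hg are highest in RV-GFP, and the 2 tables, left and right of the dotted line, were normalised separately.

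The nuclear body RNAs rose with forced Nr4a1. Neat1, the scaffold of paraspeckles, had 2461 and 2484 counts in Nr4a1-OV against 913 and 777 in RV-GFP, and 1286 and 1537 in KO against 1378 and 1484 in WT. The infected groups did not overlap and the other pair did. The log2 fold change was 1.39 ± 0.076 (SE; adjusted p = 1.72e-12) with forced Nr4a1 and 0.037 ± 0.075 (SE; adjusted p = 0.735) with the KO label. All 6 listed paraspeckle protein genes fell with forced Nr4a1, with a median of -0.40, and 4 fell with the KO label, Rbm14 the most (-0.52). Malat1, an abundant RNA of nuclear speckles, had 9380 and 9299 counts in Nr4a1-OV and 6353 and 5446 in RV-GFP, a rise of 0.51 ± 0.077 (SE; adjusted p = 6.78e-06). With the KO label its 5002 and 5950 counts against 4350 and 5168 overlapped as counts, though not as CPM, and the rise of 0.26 (adjusted p = 0.0111) was lost in DESeq2 (adjusted p = 0.148) and without KO replicate 2 (0.14) or WT replicate 1 (0.15).

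Xist, which coats and silences an X chromosome in female cells, had the most counts of the set, with 30108 and 25771 in Nr4a1-OV, 31102 and 26172 in RV-GFP, 26386 and 29492 in WT and 22983 and 26437 in KO. The infected groups overlapped, and the log2 fold change of -0.19 (adjusted p = 0.0419) lost its call in DESeq2 (adjusted p = 0.186) and without Nr4a1-OV replicate 2 (-0.083) or RV-GFP replicate 1 (-0.11), and was -0.31 without Nr4a1-OV replicate 1 and -0.35 without RV-GFP replicate 2. The KO label gave -0.12 (adjusted p = 0.246). Xist was not analysed in tumours. Ftx, a neighbour of Xist that raises its expression, fell with forced Nr4a1 from 249 and 184 to 156 and 161 counts (-0.61 ± 0.14 SE, adjusted p = 5.85e-04) and did not pass with the KO label (-0.10, adjusted p = 0.601).

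Genes listed for growth control and genome stability had small or no calls. Pvt1, which lies beside Myc on the same strand, fell by 0.29 with forced Nr4a1 (adjusted p = 0.00325) and rose by 0.41 with the KO label (adjusted p = 0.00101), where Myc gave -0.60 and 0.41. The Pumilio-binding RNA 2900097C17Rik (Norad) fell by 0.27 with forced Nr4a1, with calls lost without Nr4a1-OV replicate 1 (-0.22) or RV-GFP replicate 1 (-0.21) and a value of -0.42 without RV-GFP replicate 2. It did not pass with the KO label (0.012, adjusted p = 0.935). Tug1 did not pass in either (-0.12, adjusted p = 0.0557, and -0.082, adjusted p = 0.267), nor did the imprinted silencing RNA Kcnq1ot1 (0.025, adjusted p = 0.734, and 0.059, adjusted p = 0.541).

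The largest rise with forced Nr4a1 was that of 2310043P16Rik, at chr7:34389732-34393612 (GRCm38, + strand). It had 1202 and 1179 counts in Nr4a1-OV and 150 and 149 in RV-GFP, against 164 and 243 in WT and 136 and 143 in KO. The Nr4a1-OV libraries stood alone, and the log2 fold change was 2.84 ± 0.11 (SE; adjusted p = 9.51e-15). GENCODE gives it as a transcript still to be experimentally tested that overlaps Lsm14a on the opposite strand. Lsm14a itself gave -0.050 (adjusted p = 0.482). The fall of 0.49 with the KO label was -0.19 (adjusted p = 0.352) without WT replicate 2, -0.46 (adjusted p = 0.0556) without KO replicate 1 and -0.73 without WT replicate 1. Over the 8 libraries, the genes of the set most like it in log2 level were 1300002E11Rik (Pearson r = 0.976), I730030J21Rik (0.962) and B930095G15Rik (0.884), a description in which the Nr4a1-OV libraries are the high points.

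Mirt1, named for its rise in infarcted mouse heart, rose in both comparisons. Its counts were 422 and 367 in Nr4a1-OV against 75 and 78 in RV-GFP, and 236 and 279 in KO against 58 and 66 in WT. Neither pair of groups overlapped, and both controls were low. The log2 fold changes were 2.21 ± 0.13 (SE; adjusted p = 5.86e-12) and 2.11 ± 0.14 (SE; adjusted p = 1.99e-10). No coding gene lies within 50 kb of it.

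AW112010 had 274 and 278 RPKM in Nr4a1-OV, 89.0 and 87.2 in RV-GFP, 234 and 249 in WT and 329 and 300 in KO. RV-GFP was the low group. The log2 fold change was 1.65 ± 0.060 (SE; adjusted p = 2.72e-15) with forced Nr4a1 and 0.38 ± 0.055 (SE; adjusted p = 1.02e-05) with the KO label. AI480526 rose with forced Nr4a1 from 90 and 87 to 418 and 342 counts (1.95) and fell with the KO label from 256 and 237 to 169 and 148 (-0.58), both without overlap. I730030J21Rik rose with forced Nr4a1 from 127 and 98 to 394 and 398 counts (1.66), and gave 0.23 with the KO label (adjusted p = 0.203).

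The largest fall with forced Nr4a1 was that of Gm20743, which overlaps the chemokine gene Xcl1 on the opposite strand. It had 2673 and 2408 counts in Nr4a1-OV, 6751 and 6758 in RV-GFP, 224 and 194 in WT and 318 and 303 in KO. RV-GFP was far above every other group. The log2 fold change was -1.57 ± 0.060 (SE; adjusted p = 4.96e-15) with forced Nr4a1, where Xcl1 gave -1.43, and 0.63 ± 0.10 (SE; adjusted p = 4.67e-05) with the KO label, where Xcl1 gave 0.53. E430024P14Rik, opposite to Tagap, a gene active in T cells, had 434 and 440 counts in Nr4a1-OV and 1078 and 1125 in RV-GFP (-1.49), and 444 and 425 in KO against 209 and 245 in WT (0.99). Tagap moved the same way by less (-0.64 and 0.54). Next among called genes without overlap came D030028A08Rik (-1.12), 5430416N02Rik (-1.11) and AI506816. Gm47283, on the Y chromosome and typed protein coding in GENCODE, was named after its values were seen. It gave -1.35, but its groups overlapped. The value ran from -2.13 without RV-GFP replicate 1 to 0.21 when replicate 2 was left out instead. The call was also lost in DESeq2 (adjusted p = 0.237) and without Nr4a1-OV replicate 1 (adjusted p = 0.0911).

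**Figure D3:**
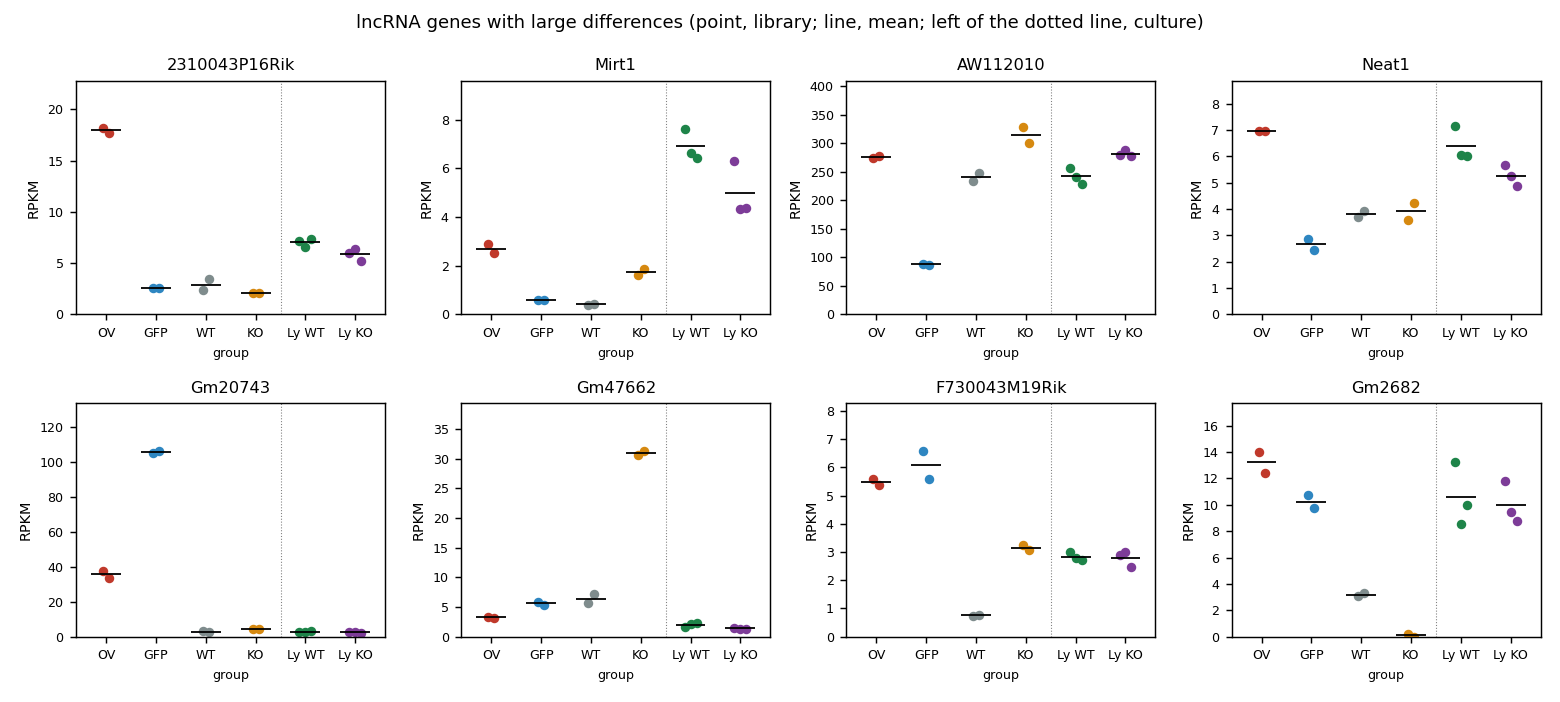
Each panel shows a gene in RPKM (axis from 0) by group: Nr4a1-OV, RV-GFP, Nr4a1 WT and KO in culture, then Ly108+ WT and KO, with points for libraries and a line for the mean. 2310043P16Rik is high in Nr4a1-OV, Gm20743 in RV-GFP and Gm47662 in the cultured libraries labelled KO, where Gm2682 is at or near 0.

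With the KO label, Gm47662 rose the most. It ends 1500 bases from Serpinb9, an inhibitor of granzyme B, on the same strand. Its counts were 1882 and 1953 in KO, 363 and 463 in WT, 206 and 195 in Nr4a1-OV and 323 and 292 in RV-GFP. The KO libraries stood alone (2.27 ± 0.082 SE, adjusted p = 4.49e-15), and the fall with forced Nr4a1 was -0.77 ± 0.11 (SE; adjusted p = 3.92e-06). Serpinb9 moved with it, by 2.11 and -1.35, and reads that run past an annotated end cannot be assigned to 1 of the pair.

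F730043M19Rik had 258 and 248 counts in KO and 62 and 65 in WT (2.05 ± 0.14 SE, adjusted p = 1.47e-10), with 440 and 425 in Nr4a1-OV and 467 and 394 in RV-GFP (-0.15, adjusted p = 0.169). It starts 96 bases from Atxn7l1 on the other strand, and Atxn7l1 went the other way with the KO label (-0.33). Gm17767 had 1537 and 1443 counts in KO and 459 and 427 in WT (1.81 ± 0.070 SE, adjusted p = 1.71e-14) and fell with forced Nr4a1 (-0.35).

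The largest fall with the KO label was that of Gm2682, an intergenic RNA. Gm2682 is on chromosome 15, as Nr4a1 is, but 41066861 bases away. It had 7 and 0 counts in KO against 115 and 123 in WT, 495 and 440 in Nr4a1-OV and 341 and 307 in RV-GFP. The mean was 0.203 ± 0.288 CPM in KO and 6.59 ± 0.26 CPM in WT (SD, n = 2). The fitted log2 fold change of -4.98 (edgeR, adjusted p = 6.86e-10) depends on how 0 counts are handled. Without KO replicate 1 the remaining library held 0 counts, and a floor of 3 counts puts it at least 38.5-fold lower than WT. In Ly108+ cells it had 11.8, 9.42 and 8.79 RPKM with the KO label and 13.2, 8.52 and 10.02 RPKM without it, which overlapped (-0.064, adjusted p = 0.843).

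Gm43305 fell with the KO label from 877 and 992 to 373 and 351 counts (-1.31 ± 0.089 SE, adjusted p = 1.94e-10) and rose with forced Nr4a1 (0.77). Gm17173, which overlaps the prostaglandin receptor gene Ptger2, fell in both (-0.89 with the KO label and -0.68 with forced Nr4a1), as did Gm20324 (-0.76 and -0.36). Gm20324 lies on chromosome 15, 18348451 bases from Nr4a1. A430093F15Rik fell with the KO label from 1273 and 1277 to 777 and 822 counts (-0.62), beside the T cell surface gene Cd5, which fell too (-0.78). Bc1, a short RNA polymerase III transcript best known from neurons, fell by 0.83 with forced Nr4a1 and by 0.40 with the KO label, the latter not called without KO replicate 2 (-0.35) or WT replicate 1 (-0.22). Gm44174 fell with forced Nr4a1 (-0.54) and gave 0.025 with the KO label (adjusted p = 0.887).

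Forced Nr4a1 and the KO label were then set side by side, since these comparisons share no library. A call in both was made for 47 of the 101 genes, and the directions were opposite for 32 of them (68.1%). Over all genes tested, 60.7% of the 4270 called in both were opposite, and 61.2% at like counts. Of the 32, 25 were lower with forced Nr4a1 and higher with the KO label, 12 of these being snoRNA hosts, and 7 were the reverse. Of the 15 with the same direction, 7 were higher and 8 lower in both. Without the snoRNA hosts, 20 of 33 genes were opposite (60.6%). Nr4a1 itself was higher in Nr4a1-OV and not lower in the libraries labelled KO.

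**Figure D4:**
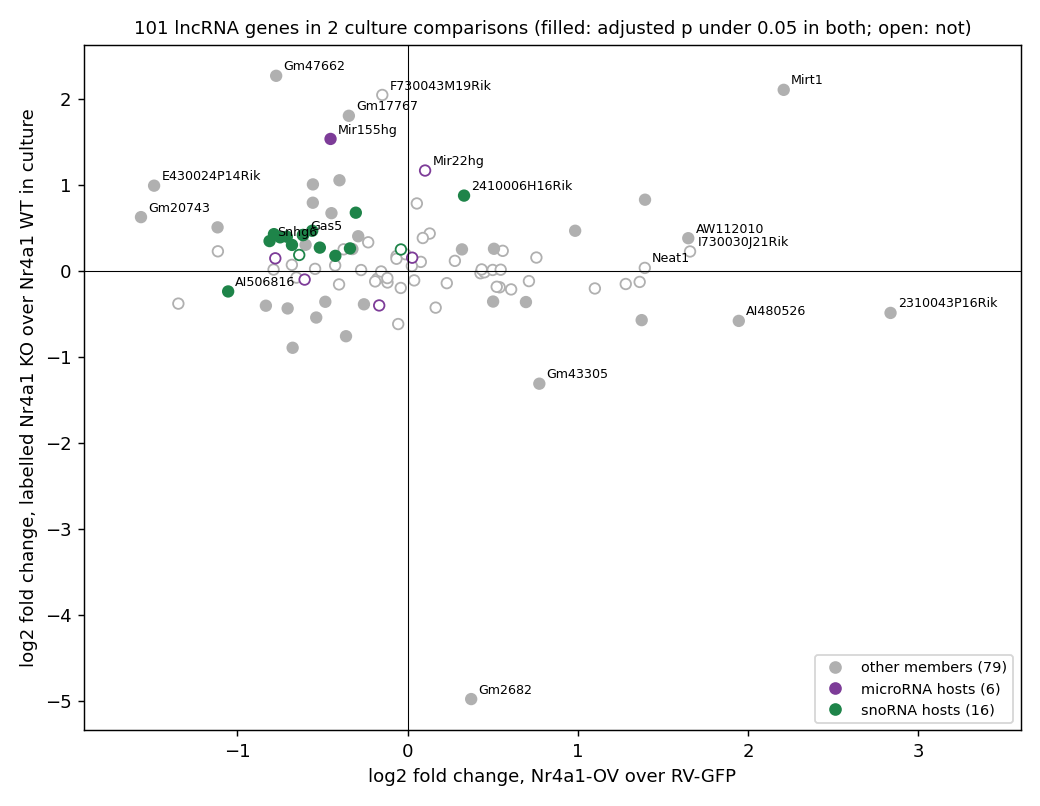
Each point is 1 of the 101 lncRNA genes, placed by its log2 fold change with forced Nr4a1 (x axis) and with the KO label in culture (y axis), and filled where the adjusted p was under 0.05 in both. The snoRNA hosts lie mostly at the upper left, and Mirt1 stands out at the upper right.

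The controls of the 2 culture experiments, RV-GFP and Nr4a1 WT, differ in infection and in whatever else separates the experiments, which cannot be told apart. This comparison shares libraries with both others. Between them 70 of the 101 genes were higher in RV-GFP and 20 lower, against 32.4% and 38.6% of all genes tested (71% in all), and 40.1% and 42.5% at like counts (82.6% in all). Of lncRNA genes under the minimum, 29.4% were higher and 18.6% lower (48% in all). Of the 69 genes at 150 or more in all 4 groups, 51 were higher and 11 lower. The median log2 fold change of the 101 was 0.69, against -0.028 at like counts. All 16 snoRNA hosts were higher in RV-GFP, with a median of 1.10, as were all 8 snoRNP protein genes (median 1.02). Of the microRNA hosts 6 were higher, Mir155hg by 2.73 and Mir17hg by 2.17. The seventh, Dleu2, was lower by 0.20, a call that ended with each library left out (-0.25 to -0.13), with RLE scaling and in DESeq2.

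The widest differences between the controls were those of Gm20743 (5.26 ± 0.080 SE, adjusted p = 5.43e-22) and F730043M19Rik (3.0) upwards, and Gm43305 (-2.90 ± 0.11 SE, adjusted p = 1.19e-15), Gm19585 (-2.53), 4921525O09Rik (-1.79), AW112010 (-1.45) and Gm47015 (-1.35) downwards. Gm19585 had 360 and 318 counts in RV-GFP, 1003 and 956 in Nr4a1-OV, 1535 and 1463 in KO and 2352 and 2281 in WT, 4 groups without overlap. D030028A08Rik, Gm26917 and E430024P14Rik were higher in RV-GFP by 2.63, 2.54 and 2.52. Across the 4 groups, RV-GFP was the highest for 50 genes and Nr4a1-OV for 32, and WT was the lowest for 51 and KO for 22. For 49 genes no neighbouring groups in that order, which was taken on RPKM, overlapped. The highest group mean was at least 1.32 times the lowest, with a median of 2.26, and at least 4 times for 21 genes. Orders, overlaps and ratios of this kind were not counted over all genes, so whether these counts are unusual was not tested. The widest ratio was that of Gm2682, which rests on the low counts in KO given above, and the next was that of Gm20743, at 38.1.

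Each lncRNA gene was set beside its nearest coding gene. There were 78 such pairs within 50 kb with both genes tested. Both genes passed the test in 48 with forced Nr4a1, 36 in the same direction. With the KO label both passed in 26, 21 in the same direction. Of all genes tested, 60.9% and 40.1% passed in these comparisons. Other pairs of neighbouring genes were not counted, so whether these pairs are unusual was not tested. Pearson's r of the log2 fold changes over the 78 pairs was 0.311 and 0.517, as a description across genes that share libraries. For the 25 pairs that overlap on opposite strands r was 0.478 and 0.441, and there the reads themselves may be shared. It was 0.166 and 0.278 for the 15 head to head pairs, and -0.0127 and 0.00463 for the 9 tail to tail pairs. A class of same-strand pairs had the highest value in each of these 2 comparisons, though not the same class. Between the controls the pairs that overlap on opposite strands had the highest r (0.812). There r was 0.244 for pairs that overlap on the same strand and 0.397 for same-strand pairs without overlap. For the 9 pairs that overlap on the same strand r was 0.854 and 0.375, and reads may be shared there too. For the 20 same-strand pairs without overlap r was 0.409 and 0.803. Neat1 and Frmd8, 4224 bases apart, rose together with forced Nr4a1 (1.39 and 1.37) but with the KO label Frmd8 fell (-0.77) where Neat1 did not pass. Close neighbours did not always go together, as the values of 2310043P16Rik and F730043M19Rik above show.

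**Figure D5:**
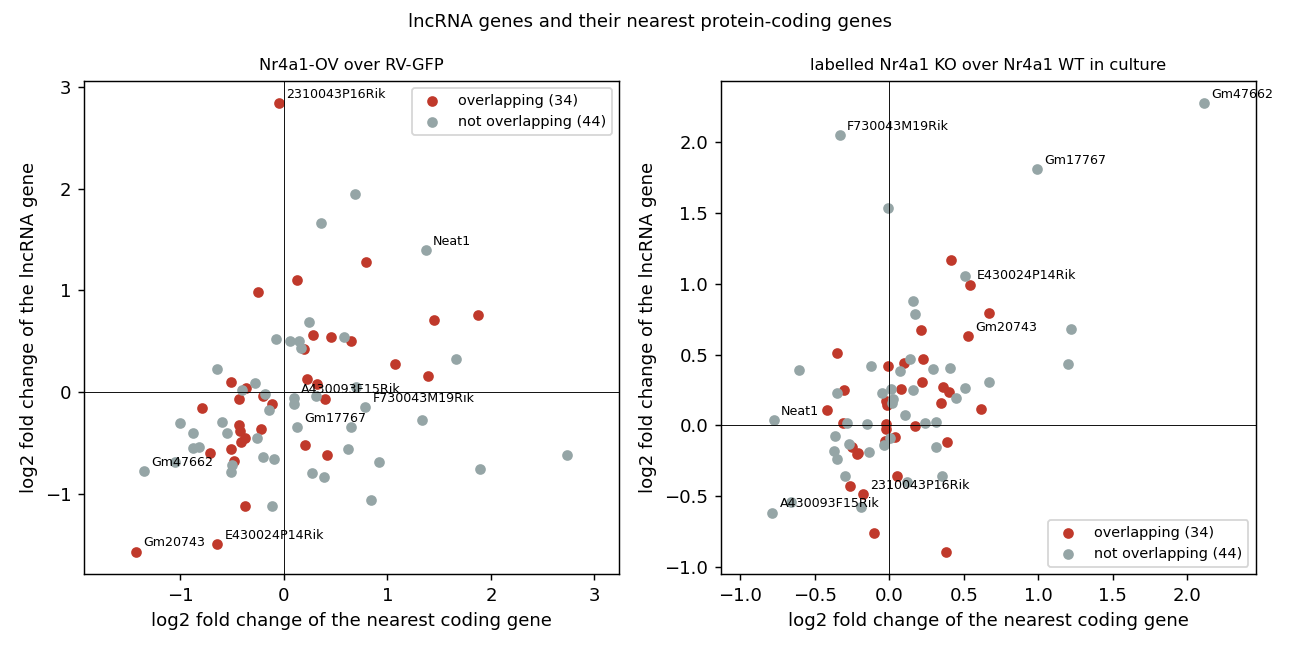
Each point is an lncRNA gene (y axis, log2 fold change) and its nearest coding gene (x axis, log2 fold change), with forced Nr4a1 on the left and the KO label on the right. Overlapping pairs are in red, and Gm20743, Gm47662 and E430024P14Rik lie near the rising diagonal.

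In the promoters, the element AAAGGTCA, which NR4A receptors bind as monomers, was looked for on both strands from 250 bases before to 50 after the start. Of the 68 genes with a promoter entry, 1 held it (1.47%), against 1.7% of 27025 genes. That gene was 2010016I18Rik, named for this match and not for its values, whose promoter is shown with the element in capitals.
2010016I18Rik, chr3:106485864-106486163, - strand: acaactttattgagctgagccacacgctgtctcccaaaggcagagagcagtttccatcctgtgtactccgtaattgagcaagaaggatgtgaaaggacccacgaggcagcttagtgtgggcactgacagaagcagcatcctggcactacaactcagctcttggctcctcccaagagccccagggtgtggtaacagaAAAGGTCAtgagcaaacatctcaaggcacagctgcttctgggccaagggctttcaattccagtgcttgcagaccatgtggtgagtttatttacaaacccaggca
2010016I18Rik had 1972 and 1811 counts in Nr4a1-OV, 946 and 771 in RV-GFP, 599 and 701 in KO and 445 and 532 in WT. It was higher in Nr4a1-OV than in RV-GFP (0.98 ± 0.085 SE, adjusted p = 2.30e-09) and in KO than in WT (0.47 ± 0.10 SE, adjusted p = 7.87e-04). The letters are a match in the reference and not a measured site.

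In tumours, 96 of the 101 genes were listed for the Ly108+ cells, a population marked by a receptor of stem-like T cells. Levels there are in RPKM of a separately normalised table. Over the 96 genes the rank correlation of mean level between culture and Ly108+ cells was 0.696 (Spearman, across genes), and 10 genes were under 1 RPKM in all 6 libraries. Among these, Gm17767 had 0.359 to 0.489 RPKM against 5.91 to 22.4 in culture, and E430024P14Rik 0.115 to 0.599 against 2.38 to 15.1. Kcnq1ot1 had 0.038 to 0.0599 RPKM against 0.403 to 1.23. Mir22hg was on the other side, with 22.5 to 30.7 RPKM against 2.17 to 10.3.

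Few of these genes passed the test for a difference with the KO label in Ly108+ cells. Of 86 tested (1 RPKM or more in at least 3 libraries), 2 were higher and 2 lower by limma on log2(RPKM + 1), where 2.04% and 2.41% of 11265 genes were (4.45% in all). The libraries of the groups did not overlap for 27 of the 86 genes (31.4%), against 29.4% of all genes tested. The median log2 difference was -0.026, against 0.0044 over all genes.

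The 4 calls were small and each rested on particular libraries. A930004J17Rik, inside Srsf4 on the same strand, had 5.61, 3.62 and 3.27 RPKM with the KO label and 9.07, 8.81 and 9.38 RPKM in WT (-0.99 ± 0.15 SE, adjusted p = 0.0186). 4930579G18Rik, opposite to Acin1, had 6.31, 5.92 and 4.44 and 10.7, 8.77 and 9.90 RPKM (-0.73 ± 0.12 SE, adjusted p = 0.0251). Both were lower in every KO library. I730030J21Rik had 13.3, 13.2 and 14.6 and 10.6, 10.2 and 10.1 RPKM (0.38 ± 0.056 SE, adjusted p = 0.0163). I730030J21Rik lies 521532 bases from Nr4a1 on chromosome 15. Epb41l4aos, the snoRNA host that also rose with the KO label in culture, had 34.2, 36.0 and 38.8 and 29.3, 22.9 and 27.8 RPKM (0.44 ± 0.093 SE, adjusted p = 0.0464), and lost its call with no filter on low values (adjusted p = 0.0509). None of the 4 stayed past the threshold each time a library was left out: none was called without KO replicate 2, WT replicate 2 or WT replicate 3, and 12 genes were called without KO replicate 1.

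The host genes that had changed in culture mostly did not pass the test here. Of the 16 snoRNA hosts 1 rose and none fell, with a median log2 difference of 0.090. Gas5 had 67.5, 77.2 and 79.7 RPKM with the KO label and 71.9, 69.0 and 67.0 RPKM in WT, which overlapped (0.11, adjusted p = 0.390). None of the 7 microRNA hosts passed the test, Mir155hg giving -0.0064 (adjusted p = 0.977). AW112010 had 279, 289 and 278 and 256, 241 and 229 RPKM, without overlap (0.22, adjusted p = 0.0716), and Gm44174 49.1, 49.4 and 59.2 and 63.2, 70.8 and 74.8 RPKM (-0.40, adjusted p = 0.0512).

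The widest difference that did not pass was that of Malat1. It had 113, 71.0 and 63.5 RPKM with the KO label and 165, 162 and 124 RPKM in WT, 2 groups that did not overlap (-0.89 ± 0.21, adjusted p = 0.0593). Neat1 gave -0.24 (adjusted p = 0.148). For Nr4a1RFP+ and Tim-3+ cells, all 13537 genes listed are typed protein coding. The absence of other genes of the set there therefore says nothing of their levels. The 1 gene of the set listed for these cells, 1810058I24Rik, had 23.6 ± 1.33 and 27.9 ± 8.17 RPKM (SD, 2 libraries each), which overlapped. It did not pass the test (-0.20, adjusted p = 0.520; 17.7% of 9508 genes passed, 9.08% higher and 8.61% lower). Without Tim-3+ replicate 2 it was called lower (-0.50, adjusted p = 0.00174), and without Tim-3+ replicate 1 the value was 0.090. It gave 0.24 in Ly108+ cells (adjusted p = 0.0638).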

How the data were processed

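RNA-seq of 18 libraries was analysed from 3 tables. For the cultured cells the authors deposited whole-number counts per gene, which were used for every culture test, and RPKM, which were used for levels. For the tumour libraries the authors' values were taken as RPKM from their range and their whole-read steps, since no header names the unit, and a separate table holds each tumour experiment. Fold changes and p-values on the log2 scale in the authors' deposited tables were used only for a check: of the genes of the set called in the authors' deposited table, 70 of 71 for forced Nr4a1, 43 of 43 for the KO label in culture and 4 of 14 for Ly108+ cells were called here in the same direction. Per the submitters' processing notes the tools were Trim Galore, HISAT2, edgeR and DESeq2 with the mm10 genome, and their versions and any use of strand in counting are not given in the sources used. The tables hold 2 columns of values that match no library and were not used.

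Culture comparisons used edgeR's quasi-likelihood test (version 4.0.16, R 4.3.3) with TMM scaling and filterByExpr over 14994 genes, in 1 model of 8 libraries. Tumour comparisons used limma 3.58.1 on log2(RPKM + 1), over genes at 1 RPKM or more in as many libraries as the smaller group holds, and fold changes on this scale understate those of low genes. Every adjusted p is a Benjamini-Hochberg value from these fits over all genes tested, with a threshold of 0.05, and a gene that rose, fell or was called passed it. Log2 differences carry standard errors from the fit, with 2 libraries per cultured group and 3 per Ly108+ group. No label states a separate animal or culture for each replicate, so the p-values measure only how these libraries spread, which may be technical. The fits were tested on simulated data. DESeq2 1.42.0 was an alternative.

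Named genes are those of the role lists, the 8 of highest level, and the 5 highest and 5 lowest called changes without group overlap in each comparison. The genes and lists were chosen with earlier results of these data known. Positions and neighbours are from GENCODE M21 on GRCm38, and sequences from RefSeq on GRCm38.p6.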

Additional observations from a re-analysis of the deposited data

Results flagged for a closer look

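For 4 genes, the libraries labelled KO all lay on one side of the WT libraries in culture and all on the other side in Ly108+ cells. The difference between culture and tumour was not tested, and the 2 tables have different units and fits. Gm20743 gave a log2 fold change of 0.63 in culture and -0.19 in Ly108+ cells. Gm47662 gave 2.27 in culture and -0.33 in Ly108+ cells. Malat1 gave 0.26 and -0.89, and Mirt1 2.11 and -0.41. All 4 passed the test in culture, and none passed it in Ly108+ cells by limma. In Ly108+ cells 31.4% of the tested genes of the set, and 29.4% of all genes, had groups without overlap. In culture the KO and WT libraries did not overlap for 75 of the 101 genes (74.3%), and all genes were not counted there. How many of all genes have this opposite pattern was not counted either, so whether 4 genes is unusual was not tested.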

How the results depend on the processing

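The number of genes called kept within 1.5 times its value for forced Nr4a1 (78, and 69 to 76 with each library left out), for the KO label in culture (55, and 47 to 51) and between the controls (90, and 84 to 88), except that with a minimum mean count of 300 it was 57 between the controls, of 63 genes. DESeq2 gave 71, 43 and 85. The Ly108+ count of 4 became 14 with edgeR on recovered reads, 7 and 2 with minimum mean counts of 100 and 300, and 0 to 12 with each library left out. For Nr4a1RFP+ against Tim-3+ it was 0 to 1, the 1 without Tim-3+ replicate 2.

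Of the genes named, 1 that had passed the test turned, Gm47283, from -2.13 to 0.21 with libraries left out for forced Nr4a1. The other turns were of genes that had not passed. With forced Nr4a1, Kcnq1ot1 became -0.014 with RLE scaling, -0.015 in DESeq2 and -0.013 with the CPM filter, and ran from -0.073 to 0.048 with libraries left out. Mir142hg became -0.012, -0.012 and -0.011, and ran from -0.092 to 0.060. Mir22hg ran from -0.079 to 0.21 and Snhg20 from -0.14 to 0.040. With the KO label in culture, 2900097C17Rik ran from -0.078 to 0.10, Gm44174 from -0.098 to 0.15 and Neat1 from -0.082 to 0.15. In Ly108+ cells, Gm2682 ran from -0.20 to 0.094 and Mir155hg from -0.070 to 0.11. Between Nr4a1RFP+ and Tim-3+ cells, 1810058I24Rik ran from -0.50 to 0.090. The causes were not tested.

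With replicate number as a block, 82, 56, 88 and 5 genes were called for forced Nr4a1, the KO label, the controls and Ly108+ cells. The 5 were 1 higher and 4 lower, against 2 and 2 without the block, and Epb41l4aos lost its call (adjusted p = 0.0527). The labels do not say that a number pairs libraries. Same-numbered Ly108+ libraries correlated at 0.22, 0.107 and 0.0341 in their deviations from the group means, and KO replicate 3 correlated best with WT replicate 2 (0.105). Depth limits low genes such as Gm2682, and 2 libraries a group limit every culture value.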
